A study of Mus musculus with 8 samples.

Results

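Adipocyte identity factors and adipokines were described in whole epididymal fat, a white fat depot, of mice that lack the lysophosphatidic acid receptor LPA4. The group holds 8 genes of the 18193 with a named probe set: the transcription factor genes Pparg, Cebpa and Cebpb, the genes of the secreted proteins leptin (Lep), adiponectin (Adipoq), resistin (Retn) and retinol binding protein 4 (Rbp4), and the carbonic anhydrase gene Car3. The genes were chosen by name, and every probe set that the platform annotation gives to 1 of them was taken, 12 probe sets of 34945. There were 4 LPA4-KO mice, males that carry the deficient allele of the X-linked gene Lpar4 (Lpar4 -/Y), and 4 WT mice. All 8 were males of 12 weeks on the C57BL/6 background on standard chow, the groups were littermates, and each array holds RNA of the whole tissue of 1 mouse, which the labels call a biological replicate.

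Fat cell differentiation is driven by a cascade in which C/EBPβ acts early and induces PPARγ and C/EBPα, which then keep each other expressed in the mature cell. PPARγ pairs with a retinoid X receptor and, with C/EBPα, switches on the genes of lipid storage and of the hormones that fat releases. Leptin reports fat stores to the brain, adiponectin raises insulin sensitivity in other tissues, resistin is made by mouse white fat cells and opposes insulin action, RBP4 carries retinol in blood, and Car3 encodes a cytosolic carbonic anhydrase that is very abundant in rodent fat cells.

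The bases just before the annotated transcription start are shown for 4 of these genes, because C/EBP factors, products of genes in this group, are known to act on the leptin promoter and because the 4 genes differ in what these data show for them. The sequences are RefSeq's on build GRCm38.p6, plus strand, 90 bases ending at the base before the start. Capitals mark matches on either strand to the C/EBP palindrome TTGCGCAA, the TATA motif TATAAA or the PPAR-RXR direct repeat, which is AGGTCA followed by any 1 base and AGGTCA again.
Lep, chr6:29060131-29060220: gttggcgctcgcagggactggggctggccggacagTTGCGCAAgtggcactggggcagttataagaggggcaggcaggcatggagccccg
Adipoq, chr16:23146446-23146535: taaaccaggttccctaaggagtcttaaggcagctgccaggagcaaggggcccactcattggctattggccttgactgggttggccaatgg
Retn, chr8:3655680-3655769: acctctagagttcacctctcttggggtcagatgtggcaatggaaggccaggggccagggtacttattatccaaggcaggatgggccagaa
Cebpa, chr7:35119203-35119292: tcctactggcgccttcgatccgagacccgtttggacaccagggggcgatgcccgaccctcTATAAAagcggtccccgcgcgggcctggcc

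The table held 10 promoters for 7 of the 8 genes and none for Car3. Within 250 bases before the start, Lep alone among these 10 promoters had the letters TTGCGCAA, at 55 to 48 bases before the start. Of 32851 mouse promoters searched over the same length, 54 (0.164%) held them. TATAAA stood in 1 promoter each of Cebpa, Pparg (on the opposite strand) and Rbp4, against 12.4% of all promoters. The direct repeat was in none of the 10 and in 0.0335% of all. A match is a description of letters and not a measured binding site. Only exact matches were searched, so a promoter without one may still hold a variant of the motif. C/EBP action on the leptin promoter was known beforehand, so its match is not an independent test.

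No probe set of the 8 genes passed the test over all named probe sets. Adipoq and the Car3 probe set with the highest signal were flat, so these arrays give no measured difference for them. Resistin and another Car3 probe set were slightly higher in every LPA4-KO mouse than in any WT mouse, by 1.13-fold and 1.18-fold. The groups also did not overlap in 28.2% of all varying probe sets (those that were not flat), 12.9% with LPA4-KO higher. Pparg, Cebpa and Rbp4 differed by less than the spread between mice, and leptin varied more between mice than between genotypes. With limma at a Benjamini-Hochberg adjusted p under 0.05, 0 of the 12 were called, where 0.933% of the 34945 named probe sets were and 0.612% were called higher in LPA4-KO. At an unadjusted p under 0.05 there were 2 of 12 (16.7%), against 16.9% of all named probe sets.

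Values are the deposited log2 values, differences are LPA4-KO minus WT with SE, and group errors are SD with n = 4. The arrays' number, not a read depth, limits the precision. Most probe sets of this table are flat, meaning that they spanned 0.1 log2 or less from the lowest to the highest array. That was so for 28263 of 34945 named probe sets (80.9%), and the other 6682 are called varying. A fit of the varying probe sets alone is given beside the first, and 18.8% of them were called in it. There 2 of the 10 varying member probe sets had an unadjusted limma p under 0.05, against 2603 of all 6682. The span that selects these probe sets takes in any genotype difference, so the selection is not independent of the test. Whether the adjusted p of the varying fit are too small was not tested. Array medians over named probe sets lay between 6.65 and 6.66, and WT mouse 1 had the lowest mean correlation with the other arrays of its group over the varying probe sets (0.972, against 0.975 to 0.988 for the other 7 arrays). Of 3 Lpar4 probe sets, 1452424_at was called lower (5.80 ± 0.05 in LPA4-KO and 6.52 ± 0.03 in WT, -0.71 ± 0.03, limma adjusted p = 0.00334). The mean of 1452424_at over the 8 arrays was low, 6.16, above that of 25.6% of named probe sets. The other 2, 1434186_at (mean 6.77) and 1439665_at (mean 7.11), did not pass and had higher means in LPA4-KO. Their differences were 0.68 ± 0.24 and 0.48 ± 0.25 (limma unadjusted p = 0.0273 and 0.0975). The sources used here do not place these probe sets against the deleted part.

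**Figure D1:**
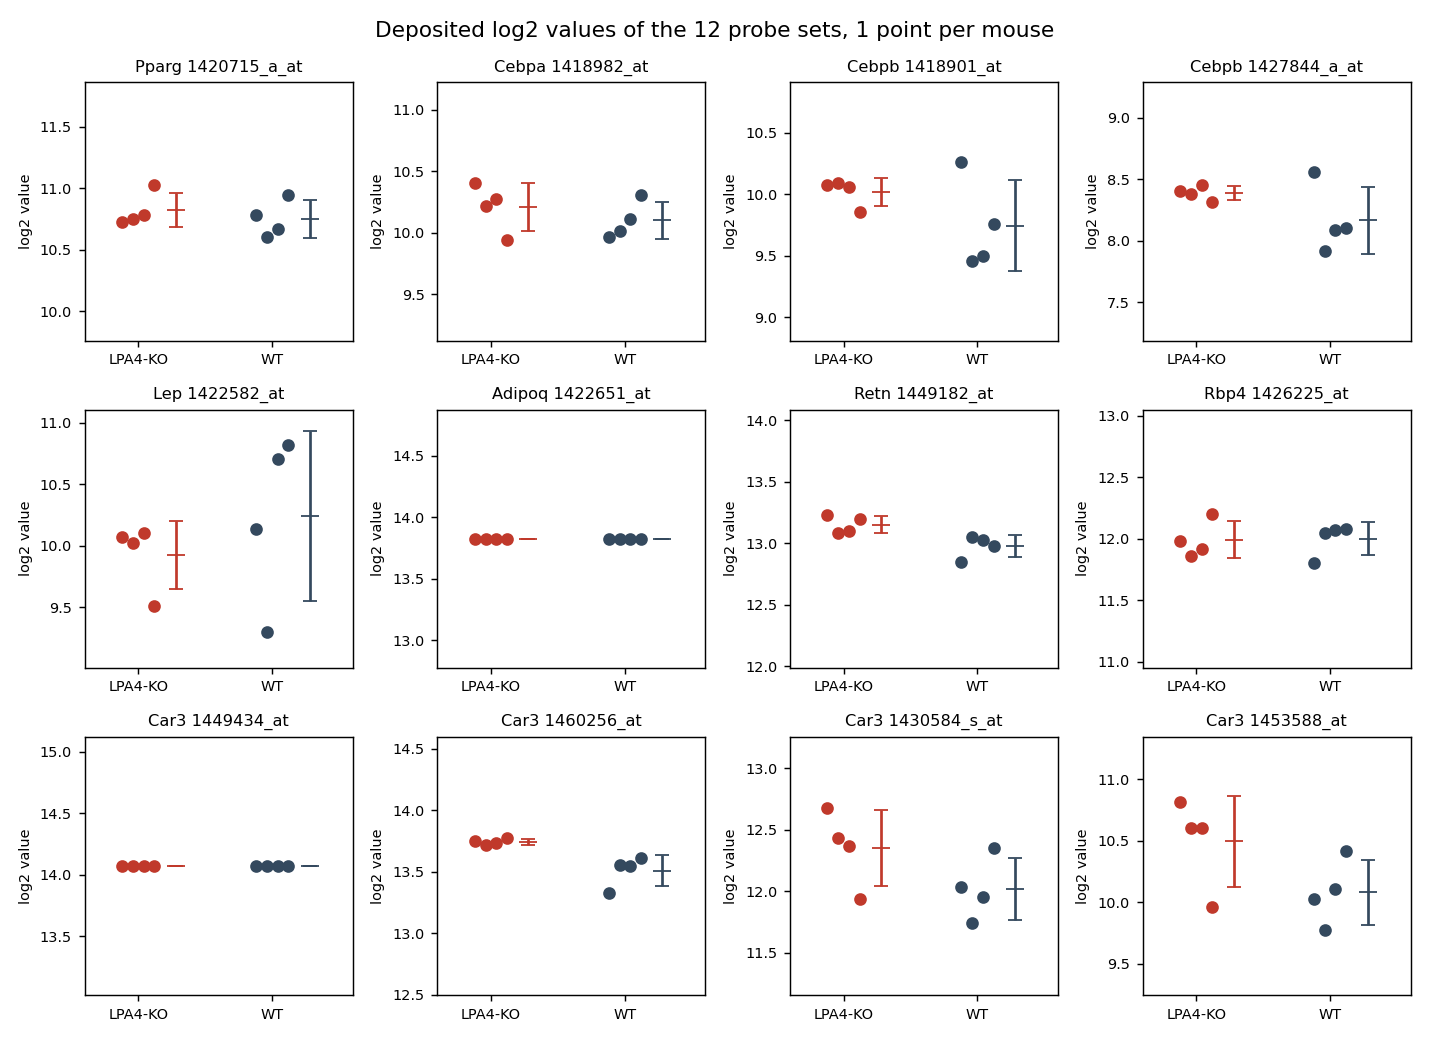
Deposited log2 values of the 12 probe sets, 1 point per mouse (LPA4-KO mice 1 to 4, then WT mice 1 to 4, left to right), with the group mean and SD beside the points; every panel spans the same log2 distance. Adipoq and Car3 1449434_at form flat lines, Retn and Car3 1460256_at separate the groups, and Lep has the widest scatter.

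Adiponectin is the member for which the table holds no usable contrast. Adipoq (1422651_at) stood at 13.83 in each of the 8 mice, with a span of 0.000197 log2. Car3 1449434_at stood at 14.07 in each of the 8 mice, with a span of 0.000138 log2, and had the highest mean signal of all named probe sets. Both are flat and highly expressed, a term used here for a mean above the 90th percentile of named probe sets (8.95). Adipoq ranked 3 among 34945 by mean signal, which is not a rank of RNA amounts. All member probe sets except Cebpb 1427844_a_at (mean 8.28) were highly expressed in this sense, and no other was flat: the next smallest spans were 0.38 for Retn and 0.40 for Rbp4. Limits of 0.05 or 0.2 log2 gave the same 2 flat probe sets out of 12.

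Flat probe sets were most frequent at low signal but occurred at the highest signal too. Of the 10 named probe sets with the highest means 8 were flat, among them those of the fat cell genes Scd1, Lpl and Fabp4, while Car3 1460256_at, at rank 6, varied. Over levels, flat probe sets made up 97.8% below the 50th percentile, 71.2% from the 50th to the 90th, 35.3% above the 90th and 25.7% above the 99th. Such spans are far below the spread of the varying probe sets between mice of 1 genotype, and a flat value is not read here as equal RNA in both genotypes. Its origin was not tested.

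**Figure D2:**
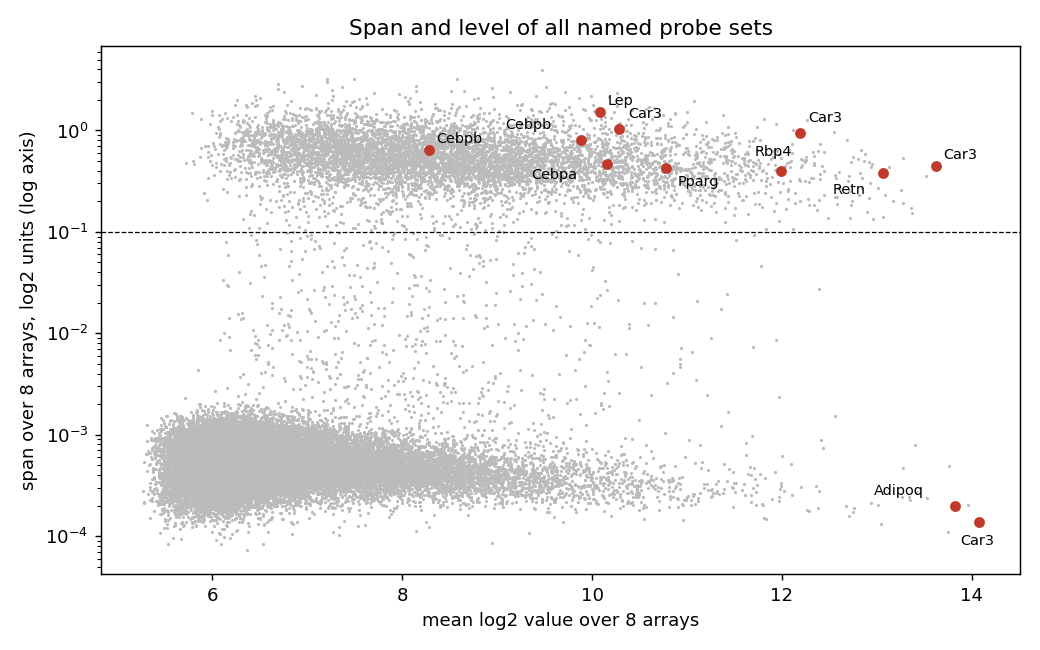
Span over the 8 arrays (log axis, log2 units) against mean log2 value for the 34945 named probe sets (grey) and the 12 member probe sets (red, with gene names); the dashed line is the 0.1 log2 limit. The probe sets fall into a varying and a flat band, and Adipoq and Car3 1449434_at lie at the top of the level scale in the flat band.

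Pparg, the nuclear receptor gene at the centre of fat cell identity, did not differ beyond the spread between mice. Its only probe set (1420715_a_at) read 10.72, 10.75, 10.78 and 11.02 in LPA4-KO mice 1 to 4, against 10.78, 10.60, 10.66 and 10.95 in WT mice 1 to 4. The groups overlap, and mouse 4 was the highest of each. The means were 10.82 ± 0.14 in LPA4-KO and 10.75 ± 0.15 in WT, a difference of 0.07 ± 0.10 (limma adjusted p = 0.78, exact permutation p = 0.486). The 95% interval of the fold ran from 0.891 to 1.24, and folds within it remain compatible with these arrays.

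Cebpa, which encodes the factor that maintains mature fat cells and their insulin response, read 10.41, 10.22, 10.28 and 9.94 in LPA4-KO mice and 9.97, 10.02, 10.11 and 10.31 in WT mice (1418982_at). The groups overlap because LPA4-KO mouse 4 was the lowest of all 8 and WT mouse 4 the second highest. The means were 10.21 ± 0.20 in LPA4-KO and 10.10 ± 0.15 in WT, a difference of 0.11 ± 0.12 (limma adjusted p = 0.71, exact permutation p = 0.429), with a 95% interval of the fold from 0.884 to 1.32.

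Cebpb, the early factor of the cascade, which is also induced by hormones and cytokines, has 2 probe sets with the same pattern over the mice, and neither passed the test. At 1418901_at the values were 10.08, 10.09, 10.06 and 9.85 in LPA4-KO mice, against 10.26, 9.46, 9.50 and 9.76 in WT mice. At 1427844_a_at they were 8.40, 8.38, 8.46 and 8.31 in LPA4-KO mice, against 8.56, 7.92, 8.09 and 8.10 in WT mice. At both probe sets WT mouse 1 was the highest of the 8 arrays and the other 3 WT mice lay below all LPA4-KO mice. The differences were 0.28 ± 0.19 (limma adjusted p = 0.51, exact permutation p = 0.229) and 0.22 ± 0.14 (limma adjusted p = 0.47, exact permutation p = 0.143). Without WT mouse 1 they were 0.45 and 0.35. Neither was called over all named probe sets then, with adjusted p of 0.126 and 0.0815, while both were called in the varying fit (limma adjusted p = 0.0217 and 0.0211). WT mouse 1 is the array with the lowest correlation with its group, and its part in the result beyond these values was not tested.

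Leptin was the most variable member. Lep (1422582_at) read 10.07, 10.02, 10.10 and 9.51 in LPA4-KO mice, against 10.14, 9.30, 10.71 and 10.82 in WT mice. The WT mice held both the lowest and the highest value, a range of 1.52 log2, and 3 of the 4 LPA4-KO mice lay within 0.1 log2 of each other. Its within-group SD of 0.529 was larger than that of 99.2% of varying probe sets. The means were 9.93 ± 0.28 in LPA4-KO and 10.24 ± 0.69 in WT, a difference of -0.32 ± 0.36 (limma adjusted p = 0.73, exact permutation p = 0.486). The 95% interval of the fold, 0.440 to 1.47, is the widest of the 12. Leaving out single mice moved the difference to -0.63 without WT mouse 2, -0.12 without WT mouse 4, -0.16 without WT mouse 3 and -0.18 without LPA4-KO mouse 4, and none of these was called. The C/EBP palindrome printed above is in the promoter of this gene. Over the 8 mice Lep had a Pearson r of 0.48 with Cebpa (Spearman rho 0.38, exact permutation p = 0.235 and 0.360, and r = 0.48 without the 2 mice farthest from the Cebpa median). With Cebpb 1418901_at and 1427844_a_at the r was 0.02 and 0.03 (exact permutation p = 0.956 and 0.938). None of these relations passed.

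Resistin was higher in every LPA4-KO mouse, by a small amount. Retn (1449182_at) read 13.23, 13.08, 13.10 and 13.20 in LPA4-KO mice, against 12.85, 13.05, 13.02 and 12.98 in WT mice. The lowest LPA4-KO mouse lay 0.033 log2 above the highest WT mouse, so the groups did not overlap. The means were 13.15 ± 0.07 in LPA4-KO and 12.98 ± 0.09 in WT, a 1.13-fold difference (0.18 ± 0.06, 95% interval of the fold 1.03 to 1.24). It did not pass over all named probe sets (limma adjusted p = 0.196) or among the varying ones (limma adjusted p = 0.059). The exact permutation p of 0.0286 is the smallest that 4 against 4 arrays can give. Groups did not overlap in 28.2% of varying probe sets, 12.9% with LPA4-KO higher, and in 2 of the 10 varying member probe sets, both with LPA4-KO higher. After quantile normalization Retn was called (limma adjusted p = 0.040), a setting in which 19712 of the 34945 were. With limma's robust variance estimate over all named probe sets the adjusted p of Retn was 0.921. Without WT mouse 1, the lowest, the difference was 0.13.

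RBP4, the retinol carrier, did not differ beyond the spread between mice, and the sign of its difference turned under other settings. Rbp4 (1426225_at) read 11.98, 11.86, 11.92 and 12.20 in LPA4-KO mice, against 11.80, 12.05, 12.07 and 12.08 in WT mice. WT mouse 1 stood below the other 3 WT mice, which lay within 0.03 log2 of each other. The means were 11.99 ± 0.15 in LPA4-KO and 12.00 ± 0.13 in WT (-0.01 ± 0.10, limma adjusted p = 0.98, exact permutation p = 0.943), with a 95% interval of the fold from 0.847 to 1.17.

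Car3 has 4 probe sets, of which 3 varied, all with higher means in LPA4-KO mice. At 1460256_at it read 13.75, 13.72, 13.73 and 13.77 in LPA4-KO mice, against 13.33, 13.55, 13.55 and 13.61 in WT mice. The LPA4-KO mice lay within 0.055 log2 of each other and 0.10 log2 or more above every WT mouse. Groups without overlap and LPA4-KO higher were found in 12.9% of all varying probe sets. The means were 13.74 ± 0.02 in LPA4-KO and 13.51 ± 0.13 in WT, a 1.18-fold difference (0.23 ± 0.06, 95% interval of the fold 1.06 to 1.30, exact permutation p = 0.0286). Over all named probe sets it did not pass (limma adjusted p = 0.141, and 0.961 with limma's robust variance estimate). Among the varying ones it did (limma adjusted p = 0.030), the only 1 of 10 member probe sets to do so, where 18.8% of all varying probe sets were called and 8.35% were called higher. That call ended when any of the 4 LPA4-KO mice or WT mouse 3 was left out, with adjusted p between 0.0577 and 0.0721, while the difference in those 5 fits stayed between 0.22 and 0.24. It held without WT mouse 1 at a smaller difference of 0.17 (limma adjusted p = 0.0190).

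The other varying Car3 probe sets had larger mean differences and more spread. At 1430584_s_at the values were 12.68, 12.44, 12.37 and 11.93 in LPA4-KO mice, against 12.03, 11.74, 11.95 and 12.35 in WT mice. At 1453588_at they were 10.82, 10.60, 10.60 and 9.96 in LPA4-KO mice, against 10.03, 9.77, 10.11 and 10.41 in WT mice. At both, LPA4-KO mice 1 to 3 lay above all WT mice and LPA4-KO mouse 4 lay inside the WT range. The differences were 0.34 ± 0.19 (limma adjusted p = 0.44, exact permutation p = 0.171) and 0.41 ± 0.22 (limma adjusted p = 0.40, exact permutation p = 0.114), with 95% intervals of the fold from 0.915 to 1.74 and from 0.923 to 1.92. Without LPA4-KO mouse 4 the difference at 1453588_at was 0.59, called only among the varying probe sets (limma adjusted p = 0.040). The suffix _s_at marks a probe set whose probes can match more than 1 transcript, so its signal may be shared.

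The Car3 probe sets had different patterns over the same mice. LPA4-KO mouse 4 was the highest of all 8 at 1460256_at, the lowest LPA4-KO mouse at 1430584_s_at and 1453588_at, and at the common value at the flat 1449434_at. Of 45 pairs among the 10 varying member probe sets, 1430584_s_at and 1453588_at had a Pearson r of 0.98 over the 8 mice (Spearman rho 0.98, exact permutation p = 0.000422 and 0.000397, adjusted p = 0.0095 and 0.0179, and r = 0.96 without the 2 farthest mice). With 1460256_at they had r of 0.48 and 0.53 (exact permutation p = 0.226 and 0.169), and within genotype groups, after each group's mean was taken off, r of 0.03 and 0.08. Which of these probe sets follows the Car3 RNA was not tested.

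Among the varying probe sets of the other member genes, Cebpa came closest to Car3 1453588_at, which was not compared with genes outside the group. Over the 8 mice the Pearson r was 0.91 and the Spearman rho 0.83 (exact permutation p = 0.00446 and 0.0154), and r was 0.86 without the 2 mice farthest from the Cebpa median. Adjusted over the 45 pairs the p-values were 0.0502 and 0.173, so the relation did not pass the correction. Within genotype groups the r was 0.94. Cebpa had r = 0.89 with Car3 1430584_s_at (exact permutation p = 0.0059, adjusted p = 0.0529). With Car3 1460256_at its r was 0.48 (exact permutation p = 0.23), being -0.54 in LPA4-KO mice and 0.75 in WT mice. The 2 probe sets of Cebpb had r = 0.96 (Spearman rho 0.90, exact permutation p = 0.000149 and 0.00456, adjusted p = 0.0067 and 0.068, and r = 0.94 without the 2 farthest mice). Retn and Car3 1460256_at each separate the genotypes, so their pooled correlation also holds the genotype difference. It was r = 0.91 (Spearman rho 0.90, exact permutation p = 0.00134 and 0.00456, adjusted p = 0.0201 and 0.068). Within genotype groups the r was 0.75, which was not tested. WT mouse 1 was the lowest of the 8 at Retn, at Car3 1460256_at and at Rbp4.

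**Figure D3:**
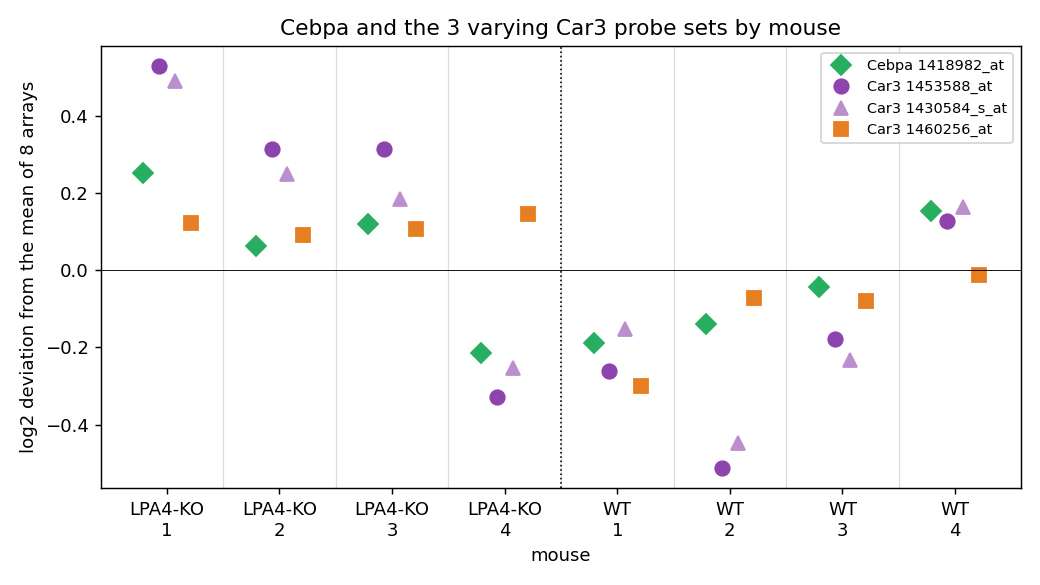
Log2 deviation from the mean of all 8 arrays for Cebpa and the 3 varying Car3 probe sets, by mouse, with LPA4-KO mice left of the dotted line and WT mice right of it. Cebpa, 1453588_at and 1430584_s_at are low together in LPA4-KO mouse 4, where 1460256_at is at its highest.

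Across the 12 probe sets, 8 of the 10 varying ones had a positive difference, against 43.2% of all varying probe sets, and 3 of the 8 belong to Car3 and 2 to Cebpb, so they are not separate observations. The median over the 10 was 0.20 log2, beside -0.05 over all 6682 varying probe sets.

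**Figure D4:**
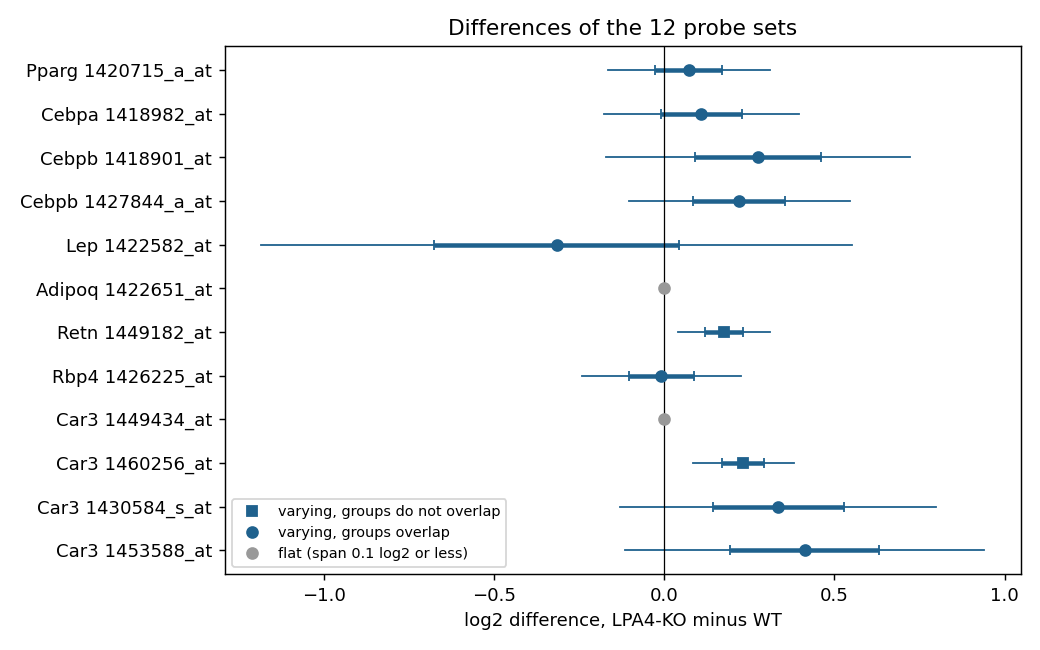
Log2 difference, LPA4-KO minus WT, for each of the 12 probe sets, with SE (thick bar) and 95% interval (thin line) from the limma fit of all named probe sets. The intervals of Retn and Car3 1460256_at (squares) lie above 0, that of Lep is the widest, and the 2 flat probe sets (grey) sit at 0 without a measured contrast.

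Markers of 4 other cell types had lower mean values in LPA4-KO in the same arrays. Of all 4029 varying genes 2153 were lower too, and the genes of 1 list may rise and fall together. An exact permutation p of 0.0286 is the smallest that 4 against 4 arrays can give, and it does not compare a list with other genes. All 9 measured progenitor and fibroblast markers varied and were lower in LPA4-KO on average, with list means of 9.41 to 9.79 in LPA4-KO and 9.89 to 10.19 in WT (exact permutation p = 0.0286). Of 11 macrophage markers 8 varied, all lower, though Cd163 by only -0.01, and Adgre1, Fcgr1 and Cx3cr1 were flat. The list means were 8.9614 to 9.098 in LPA4-KO and 9.0985 to 9.2746 in WT (exact permutation p = 0.0286). The groups of list means thus nearly touched. All 10 mesothelial markers were lower, with means of 7.47 to 8.003 in LPA4-KO and 7.80 to 8.66 in WT (exact permutation p = 0.0857). Of 10 endothelial markers 5 varied, 4 of them lower, with means of 8.47 to 8.62 in LPA4-KO and 8.60 to 8.72 in WT (exact permutation p = 0.0571). Their part in the differences of Retn and Car3 was not tested, and in whole tissue fewer cells of a type and less RNA per cell cannot be told apart.

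Markers of neighbouring tissues were also read, but most of these probe sets were flat and signals of different probe sets are not RNA amounts, so the values describe the table and do not settle the purity of the tissue. None of 8 epididymal epithelium markers varied, and their list mean was 6.18 in every mouse, below the median of named probe sets. The exact permutation p of these flat list means was still 0.0286, at a difference of 0.000185 log2. A small p of a list mean therefore also arose without a measured contrast. Car3 is also a skeletal muscle gene. Of 10 skeletal muscle markers 9 were flat, with Ckm, the muscle creatine kinase gene, at 6.51 in both groups, and Acta1 alone varied (9.81 ± 0.80 in LPA4-KO and 10.53 ± 0.36 in WT, limma adjusted p = 0.45). The muscle list means were 6.46 to 6.66 in LPA4-KO and 6.59 to 6.68 in WT (exact permutation p = 0.143). Of 7 brown fat markers 2 varied, Cox8b and Cidea, and Ucp1 was flat at 6.01, with list means of 6.47 to 6.69 in LPA4-KO and 6.41 to 6.47 in WT (exact permutation p = 0.0571). Signal above background was not tested.

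Genes around the 8 members were followed in 7 lists, with 150 measured genes other than the members, each represented by the probe set whose mean was highest. None was called over all named probe sets, where 1.06% of genes were, and 33 had an unadjusted p under 0.05 (22.0%, against 17.1% of all genes, a difference that was not tested). Among the 87 that varied, 15 were called in the varying fit, 6 higher and 9 lower in LPA4-KO (17.2%, against 20.2% of all 4029 varying genes). In that fit 33 of the 87 had an unadjusted limma p under 0.05, where 39.9% of varying genes did. Of the 15, 8 were still called whichever mouse was left out, namely Gpd1, Agt, Car2, Stat3, Retnla, Adm, C1qtnf1 and Rarres2. Of the 8 fits that each left out 1 mouse, Slc2a4 was called in 4, Wnt5b and Car5b in 3, Sfrp5 and Fst in 2, and Cebpg and Sparc in 1, and no sign turned. The median difference of the 87 was -0.05, beside -0.03 over all varying genes. Differences and SE below are from the fit of all named probe sets, and each adjusted p is limma's among the varying probe sets.

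Relatives of the members in the C/EBP, PPAR and retinoid X receptor families were measured for 8 genes. The 3 that varied were all positive, and Cebpg, which encodes a C/EBP partner, was called higher (9.40 ± 0.08 in LPA4-KO and 9.05 ± 0.17 in WT, 0.35 ± 0.09, adjusted p = 0.033). Ppara, the PPAR gene of fatty acid oxidation, differed by 0.42 ± 0.16 (adjusted p = 0.070), and Cebpd, an early factor like Cebpb, by 0.45 ± 0.31 (adjusted p = 0.22). Of 22 regulators that promote fat cell differentiation 15 varied and 0 were called, with a median of -0.07. At an unadjusted p under 0.05 there were 5 of the 15 in the varying fit, where 39.9% of varying genes were, and the smallest p had Nr1h3, the liver X receptor alpha gene (0.22 ± 0.05, adjusted p = 0.052), and Zfp467 (0.26 ± 0.08, adjusted p = 0.075). Klf9 and Klf4, the 2 with the highest signal, differed by -0.13 ± 0.15 and -0.07 ± 0.12.

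Of 18 measured genes in the list drawn up for factors that restrain differentiation, 8 varied and 1 was called. This was Wnt5b, a Wnt ligand gene, which was lower (6.38 ± 0.19 in LPA4-KO and 6.84 ± 0.13 in WT, -0.46 ± 0.11, adjusted p = 0.028). Its place in the list is not evidence that it restrains differentiation, and its role was not tested here. Wnt10b, the ligand best known to block fat cell formation, was flat at 6.29. The 2 with the highest signal were Wwtr1, the TAZ coactivator gene (-0.23 ± 0.12), and Klf3 (-0.14 ± 0.09), and neither passed.

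Among 27 target genes of PPARγ in white fat, 21 varied with a median of 0.11, and 2 were called, both higher. Gpd1, the enzyme gene that makes glycerol 3-phosphate for triglyceride, averaged 9.76 ± 0.25 in LPA4-KO and 8.65 ± 0.38 in WT (1.11 ± 0.22, adjusted p = 0.010). Slc2a4, the insulin-responsive glucose transporter gene, averaged 9.16 ± 0.30 in LPA4-KO and 8.45 ± 0.27 in WT (0.70 ± 0.20, adjusted p = 0.026). Scd1 and Lpl, the targets with the highest signal, were flat, like Adipoq.

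Of 37 other measured genes for secreted products of fat, 6 were called lower and 1 higher (24 varied, median -0.19, beside 10.9% of varying genes lower and 9.26% higher). The higher one was Agt, the angiotensinogen gene, at 10.04 ± 0.23 in LPA4-KO and 9.49 ± 0.03 in WT (0.55 ± 0.11, adjusted p = 0.014). Rarres2, the chemerin gene, averaged 10.94 ± 0.17 in LPA4-KO and 11.45 ± 0.17 in WT (-0.51 ± 0.12, adjusted p = 0.018). C1qtnf1, a gene of the adiponectin-related CTRP family, differed by -0.46 ± 0.08 (adjusted p = 0.014) and Adm, the adrenomedullin gene, by -0.63 ± 0.12 (adjusted p = 0.012). Sfrp5, a secreted Wnt antagonist gene, differed by -1.13 ± 0.37 (adjusted p = 0.037), Fst, the follistatin gene, by -0.57 ± 0.18 (adjusted p = 0.040) and the matrix gene Sparc by -0.31 ± 0.09 (adjusted p = 0.037). Several of these, Sparc among them, are also made by cells other than fat cells, whose markers were lower as given above, and the part of those cells was not tested.

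Receptors, assembly factors and carriers of the secreted members were measured for 21 genes, of which 7 varied. Stat3, the transcription factor gene of leptin receptor signalling, was called lower (9.11 ± 0.09 in LPA4-KO and 9.66 ± 0.19 in WT, -0.55 ± 0.10, adjusted p = 0.012). Socs3, a feedback inhibitor that STAT3 induces, differed by -0.40 ± 0.18 (adjusted p = 0.104). The adiponectin receptor gene Adipor2 was flat at 11.97, and Rbp7, a cellular retinol binding protein gene, differed by -0.05 ± 0.15.

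Among 20 measured paralogs of resistin, of the adiponectin-like C1q genes and of the carbonic anhydrases, 10 varied, 2 were called higher and 1 lower. Retnla, a resistin relative that macrophages also make, was lower (11.16 ± 0.17 in LPA4-KO and 11.70 ± 0.14 in WT, -0.54 ± 0.11, adjusted p = 0.012), while Retn itself had a positive difference. Car2, a cytosolic carbonic anhydrase gene, was higher (7.70 ± 0.10 in LPA4-KO and 7.13 ± 0.16 in WT, 0.57 ± 0.09, adjusted p = 0.011), as was Car5b, a mitochondrial one (10.19 ± 0.19 in LPA4-KO and 9.71 ± 0.21 in WT, 0.48 ± 0.14, adjusted p = 0.032). C1qa differed by -0.17 ± 0.15 and did not pass.

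**Figure D5:**
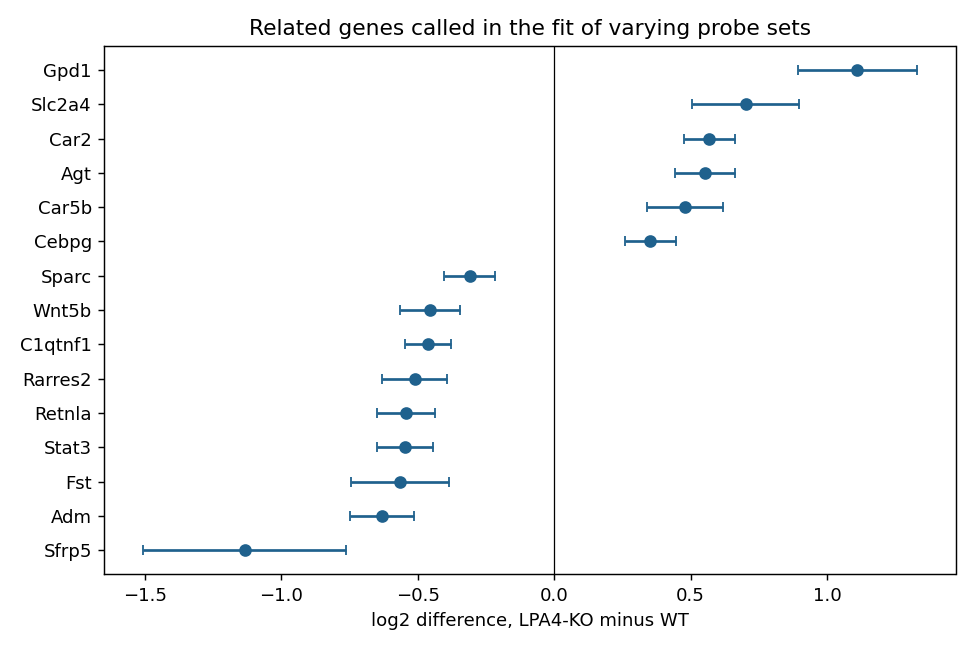
Log2 difference, LPA4-KO minus WT, with SE, for the 15 related genes called among the varying probe sets, in order of their differences. Gpd1 has the largest positive and Sfrp5 the largest negative difference.

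For the 6 members whose highest probe set varied, the most similar patterns over the 8 mice were sought among the 4028 other varying genes. Lep was closest to Rgs10, a regulator of G protein signalling gene, with a Pearson r of 0.99, and then to the myosin gene Myo1c (0.96). Pparg was closest to Tinagl1 (0.96) and Ccdc174 (0.92), and Cebpa to the proteasome activator gene Psme1 (0.96) and Mmd (0.94). Cebpb was closest to Cipc, a gene whose product inhibits the clock factor CLOCK (0.99), and to the amino acid transporter gene Slc43a1 (0.97). Retn was closest to Mgst3, a microsomal glutathione S-transferase gene (0.98), and to the mitochondrial chaperone gene Trap1 (0.97), and Rbp4 to Atp5k (0.93) and Rps4l (0.90). These are the highest of 4028 values each, over 8 arrays that share 2 genotypes, and are given as descriptions.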

How the data were processed

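RNA of 8 mice was measured on Affymetrix 3′ expression arrays. Per the labels' protocols, frozen tissue was extracted with a lipid tissue kit and labelled with a 3′ IVT kit. The deposited values, 1 per probe set and array, were read as log2 from their range and are the authors' own. Per the submitters' processing notes R 2.14.0 was used. No source used here states the background correction, normalization, summarisation or log base, so every fold rests on that reading.

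Gene names came from the platform annotation, which gives 34945 probe sets 1 gene symbol. Those with several (932) or no listed gene (9160) and 64 controls were left out. Groups came from the labels. Each probe set was tested with limma 3.58.1 in R 4.3.3 (lmFit, eBayes with trend, no block, Benjamini-Hochberg over all named probe sets, threshold 0.05), without a filter, and again among varying probe sets. Single values and correlations were tested by exact two-sided permutation (scipy 1.17.1). The fits were run on simulated data with added shifts larger than any member difference given here. That run does not show how well differences of the reported size are found.

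The members, the lists, the 0.1 log2 limit and the alternatives were chosen with earlier results of these data known. The text names all members, Lpar4 and, in each related list, every called gene, the 2 with the smallest p and the 2 with the highest mean, plus the 2 genes most like each member. Alternatives were other scalings, filters, variance models, a replicate block, other limits, and each array left out.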

Additional observations from a re-analysis of the deposited data

Results flagged for a closer look

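Among the 15 probe sets of the members and Lpar4, tested in each group of 4 mice, 3 values stood far from the other 3 of their group by Dixon's ratio, which flags about 1 in 20 groups by chance. LPA4-KO mouse 4 was low at Cebpb 1418901_at (9.85) and at Lep (9.51). WT mouse 1 was low at Rbp4 (11.80). Which property of these mice or arrays goes with the values was not tested.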

How the results depend on the processing

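Over all named probe sets 0 of the 12 member probe sets, 326 of all and 0 related genes were called. Quantile normalization gave 1, 19712 and 54 calls in that order, 94.3% of all calls being higher in LPA4-KO, against 65.6% before it. Among varying probe sets alone the counts were 1, 1259 and 15 (44.3% higher), 1, 1288 and 18 after centring (55.3% higher), 1, 1314 and 16 with a span limit of 0.05, and 1, 1219 and 16 with a limit of 0.2. Probe sets above the median level gave 595 calls in all and 4 related, array weights 535 and 3, and an adjusted p under 0.1 gave 1126 and 7, with 0 members in each. Leaving out each mouse gave 10 to 125 calls in all and 0 members; among varying probe sets, an alternative chosen after seeing the data, it gave 0 to 3 members. Calls in all and related genes were then 494 and 8, 621 and 9, 625 and 11, and 657 and 11 without LPA4-KO mice 1 to 4, and 1352 and 19, 940 and 15, 574 and 8, and 718 and 10 without WT mice 1 to 4. With the replicate number as a block 3 probe sets and 0 members were called, and among varying ones 959, 1 member and 15 related genes; the call of Lpar4 1452424_at was lost under the block over all named probe sets (-0.71, adjusted p = 0.0847) and held under the block among varying ones (adjusted p = 0.0236). Same-numbered mice deviated together with r of 0.088, 0.083, 0.273 and -0.20 over 6682 probe sets, so the numbers were not taken as pairs. Of 302 alternatives for single member probe sets, 276 kept the sign and side of 0.05, 12 gained a call by adjusted p, in 2 (Retn and Car3 1460256_at) the exact permutation p of 0.0286, which is unadjusted and no call, was under 0.05, and 12 turned the sign, all of Rbp4: 0.034 after quantile normalization, 0.020 after centring varying probe sets, and 0.036, 0.016, 0.0088, 0.016 and 0.018 without LPA4-KO mouse 2, LPA4-KO mouse 3, WT mouse 2, WT mouse 3 and WT mouse 4, the lowest value being -0.078 without LPA4-KO mouse 4. The cause was not tested. With 4 mice a group and no stated normalization, the number of arrays limits the precision, and flat probe sets give no measured difference.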
